A study of Mus musculus with 6 samples.

Results

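The loci described here are those of 10 mouse genes of the TEAD, YAP and TAZ pathway: Tead1, Tead2, Tead3, Tead4, Yap1, Wwtr1 (which encodes TAZ), Amotl2, Ajuba, Axl and Lats2. Their members were the ATAC-seq summits listed in the body of each gene or within 30 kb of it, on mm10 with GENCODE M21. In all, 2606 of the 1797083 summits in the deposited lists lay there, and 255 of the 179249 windows compared across the genome. Chromatin accessibility was measured in preadipocytes cultured from the inguinal white adipose tissue of adult C57BL/6 mice at day 0, before any differentiation medium was added. There were 3 libraries of wild type cells (WT) and 3 of Hmgn1-/- and Hmgn2-/- double knockout cells (DKO), which carry both deletions from the germline and so lack these nucleosome-binding proteins throughout life. Neither the labels nor the methods say whether the libraries of a genotype came from separate mice, so a p-value here measures the spread between these libraries only.

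The TEAD proteins are DNA-binding factors that recognise the letters GGAATG and depend on a coactivator. YAP and TAZ, the products of Yap1 and Wwtr1, are those coactivators, and the Hippo kinases LATS1 and LATS2 phosphorylate them and hold them out of the nucleus. TAZ is also known to bind and repress PPARγ, the master factor of adipocyte differentiation. Amotl2, Ajuba, Axl and Lats2 are known targets of YAP and TEAD in several cell types, and the products of Amotl2, Ajuba and Lats2 in turn act within the Hippo pathway. TEAD sites in enhancers are often found beside sites of AP-1, the dimer of FOS and JUN proteins.

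The sequences of 9 windows are shown because the results below return to them. Each is the 201 bases around the centre of a window, from the plus strand of GRCm38 (the same assembly as mm10), 5′ to 3′. Capitals mark GGAATG or its reverse complement CATTCC (TEAD letters) and TGACTCA or TGAGTCA (AP-1 letters), searched on both strands, and the 2 motifs did not overlap in any of them. The first group holds the promoters of Wwtr1 at chr3:57575916-57576116, Yap1 at chr9:8004660-8004860 and Tead3 at chr17:28350819-28351019. These 3 genes lie on the minus strand, so each capital run reads GGAATG in the direction of the gene, 131, 136 and 165 bases upstream of the gene start for Wwtr1, Yap1 and Tead3.
Wwtr1 promoter: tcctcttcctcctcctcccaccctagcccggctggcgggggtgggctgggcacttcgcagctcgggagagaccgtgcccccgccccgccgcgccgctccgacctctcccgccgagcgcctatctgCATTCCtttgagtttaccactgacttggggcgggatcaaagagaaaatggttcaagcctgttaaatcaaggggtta
Yap1 promoter: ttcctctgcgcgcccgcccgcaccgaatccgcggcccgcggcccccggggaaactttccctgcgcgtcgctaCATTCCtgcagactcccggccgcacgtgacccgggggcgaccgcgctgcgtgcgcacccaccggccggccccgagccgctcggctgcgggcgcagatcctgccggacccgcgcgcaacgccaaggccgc
Tead3 promoter: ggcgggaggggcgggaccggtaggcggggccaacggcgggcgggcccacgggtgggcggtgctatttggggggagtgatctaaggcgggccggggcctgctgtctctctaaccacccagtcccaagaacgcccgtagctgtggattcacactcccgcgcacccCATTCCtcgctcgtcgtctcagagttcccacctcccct

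The second group holds sites away from promoters that carry TEAD letters: an intron of Tead1 at chr7:112720212-112720412, the region upstream of Lats2 at chr14:57760510-57760710 and an intron of Axl at chr7:25783841-25784041. Those of Tead1 and Lats2 were the strongest sites of their genes away from promoters. That of Axl was taken from the windows higher in DKO with the smallest p, not for its strength. Upstream of Lats2 the 2 TEAD matches lie on opposite strands. In the Tead1 intron a TEAD match lies beside an AP-1 match, and the Axl intron holds 1 TEAD and 2 AP-1 matches.
Tead1 intron: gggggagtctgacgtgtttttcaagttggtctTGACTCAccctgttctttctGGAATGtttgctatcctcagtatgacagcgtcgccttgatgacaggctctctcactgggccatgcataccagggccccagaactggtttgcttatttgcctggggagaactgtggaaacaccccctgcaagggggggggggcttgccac
Lats2 upstream: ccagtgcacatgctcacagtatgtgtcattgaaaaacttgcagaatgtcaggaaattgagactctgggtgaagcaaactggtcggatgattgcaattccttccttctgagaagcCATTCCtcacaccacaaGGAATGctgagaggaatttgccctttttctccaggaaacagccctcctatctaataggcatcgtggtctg
Axl intron: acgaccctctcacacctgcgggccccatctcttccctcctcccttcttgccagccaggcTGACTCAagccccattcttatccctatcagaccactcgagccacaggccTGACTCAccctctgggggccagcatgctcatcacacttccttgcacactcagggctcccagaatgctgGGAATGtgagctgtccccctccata

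The third group holds the 3 windows in introns of the genes themselves with the smallest p between genotypes. They are Lats2 at chr14:57729973-57730173 and Tead3 at chr17:28341085-28341285, both with AP-1 letters, and Yap1 at chr9:7990980-7991180, with neither motif.
Lats2 intron: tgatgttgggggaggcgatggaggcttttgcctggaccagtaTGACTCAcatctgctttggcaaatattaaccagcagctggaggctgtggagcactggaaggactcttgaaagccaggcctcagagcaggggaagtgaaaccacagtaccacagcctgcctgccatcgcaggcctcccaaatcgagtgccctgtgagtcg
Tead3 intron: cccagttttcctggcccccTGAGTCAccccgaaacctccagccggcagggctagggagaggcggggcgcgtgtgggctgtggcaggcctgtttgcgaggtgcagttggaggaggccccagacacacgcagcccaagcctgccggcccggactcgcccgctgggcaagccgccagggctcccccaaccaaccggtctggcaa
Yap1 intron: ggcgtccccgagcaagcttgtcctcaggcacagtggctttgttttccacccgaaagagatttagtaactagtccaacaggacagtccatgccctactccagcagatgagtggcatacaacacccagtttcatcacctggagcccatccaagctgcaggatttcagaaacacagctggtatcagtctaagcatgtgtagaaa

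The lists held between 299433 and 299620 summits, because the authors kept about the 300000 best in each library. The lowest listed −log10 p was 3.54 in DKO replicate 3, the lowest, and 5.63 in WT replicate 3, the highest. A window unlisted in a library was thus not necessarily closed. Its signal was below that limit, or the summit lay more than 250 bp from the window's centre. Fold enrichment is the pileup at a summit over the local background of the same library. Over the 156 windows of these genes listed in all 6 libraries, its median was 6.92, 6.22 and 7.98 for the WT libraries (replicates 1, 2 and 3) and 6.41, 6.80 and 6.14 for the DKO libraries, and values are given in this order throughout. WT replicate 3 was the highest of the 6 and DKO replicate 3 the lowest. As a check of the cell type, 6 of 8 promoters of fibroblast and adipocyte progenitor markers, Pdgfra and Pdgfrb among them, had a listed summit in all 6 libraries, with Pdgfra between 4.90 and 5.61 and Pdgfrb between 7.24 and 10.9, and Plin1, Cidec and Ucp1 of the 4 mature adipocyte markers in none. The median of the highest value per gene was 12.7 for the endothelial markers, against 6.84 for the progenitor markers, and 3 of 4 endothelial markers were listed in all 6 libraries. The higher values were those of Pecam1 (16.9, 12.2 and 17.2 in WT, 11.1, 11.8 and 10.3 in DKO) and Tek (18.2, 15.4 and 16.7 in WT, 13.5, 15.3 and 14.3 in DKO). For both, every deposited DKO value was below every WT value. Kdr, between 4.71 and 8.22, and Cdh5 lay within the range of the progenitor markers. Cdh5 was listed in the 3 DKO libraries only, at 3.91, 7.09 and 4.26. Of the 5 leukocyte markers, Csf1r and Cd68 were listed in all 6, Itgam in the 3 DKO libraries only at 4.19, 5.95 and 3.28, Adgre1 in 2 DKO libraries and Ptprc in 1 WT library. The part of other cell types in the values below was not tested.

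Most accessible sites of the long genes Tead1, Wwtr1, Yap1 and Lats2 lay in the gene body. Tead1, which spans 227.5 kb of chromosome 7, had 59 windows, 47 of them in its body away from any transcription start site (TSS). Wwtr1 (120.3 kb, chromosome 3) had 42 windows with 29 in its body, and Lats2 (68.7 kb, chromosome 14) had 29 with 15 in its body. There were 18 windows at Yap1 (72.6 kb, chromosome 9), 14 of them in its body. Tead4 is of like length (76.5 kb, chromosome 6) but had 16 windows with 7 in its body. The shorter genes had 24 windows at Axl, 23 at Amotl2, 17 at Tead3, 14 at Ajuba and 13 at Tead2. In each of these 5 shorter genes the flanks held more windows than the body, with 15 and 5 at Amotl2 and 8 and 0 at Tead2. By position, 23 windows were within 1 kb of a TSS of their own gene, 26 within 1 kb of a TSS of a neighbouring gene, 131 elsewhere in a gene body and 75 elsewhere in a flank. The number of listed summits was alike in the libraries, at 435, 434 and 442 for WT and 432, 437 and 426 for DKO. Of the 255 windows, 61.2% were listed in all 6 libraries, against 58.0% of all windows.

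**Figure D1:**
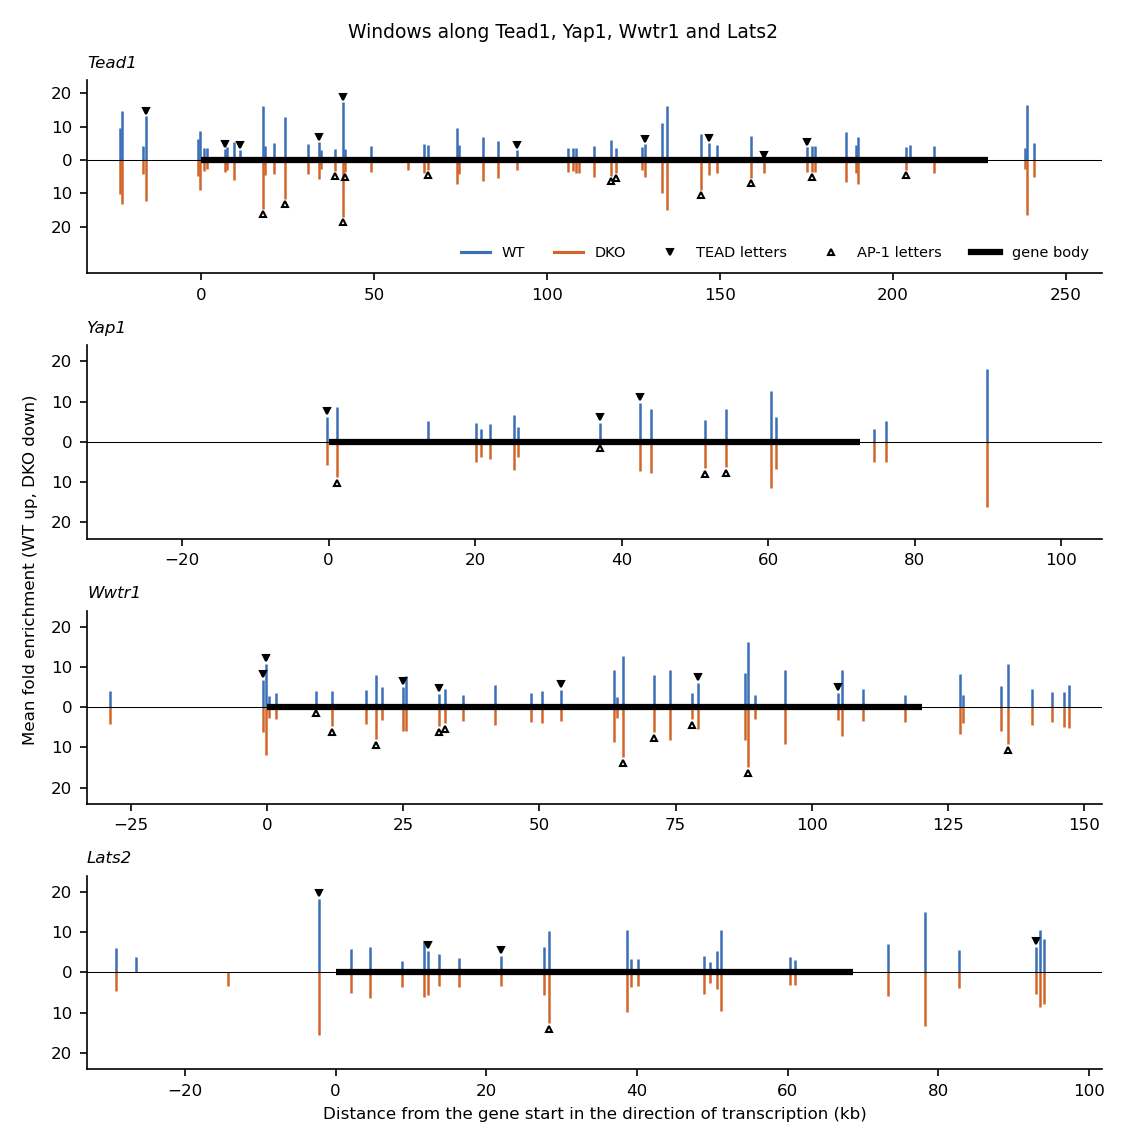
Windows along Tead1, Yap1, Wwtr1 and Lats2. The x axis is the distance from the gene start in the direction of transcription (kb), lines upward are the mean fold enrichment of the WT libraries that listed a summit and lines downward that of the DKO libraries, and triangles mark windows with TEAD or AP-1 letters. The strongest lines of the Tead1 body and upstream of Lats2, with WT means of 17.5 and 18.3, carry TEAD letters, and a line on one side only is a window that no library of the other genotype listed.

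All 4 TEAD genes had an accessible promoter in every library. Tead3 (chr17:28350669-28351169, just upstream of its start) showed a fold enrichment of 10.8, 8.35 and 14.1 for WT and 10.5, 10.6 and 10.4 for DKO. Tead1 (chr7:112678639-112679139, also in an intron of the neighbouring 2310014F06Rik) had 9.43, 7.68 and 9.36 in WT and 8.33, 7.86 and 10.7 in DKO. Tead1 and Tead3 thus had DKO values within or around the WT range, with log2 changes after scaling of 0.20 ± 0.17 (SE) and 0.13 ± 0.12.

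The promoters of Tead2 and Tead4 were weaker in WT. Tead2 (chr7:45215944-45216444, centred in a UTR) stood at 7.31, 5.97 and 6.27 in WT and 8.93, 9.29 and 5.16 in DKO, so that 2 DKO libraries were above and 1 below all WT libraries. Tead4 (chr6:128300324-128300824, centred in a UTR and with TEAD letters) stood at 5.66, 7.11 and 7.19 in WT and at 10.6, 7.11 and 8.57 in DKO. For Tead4, DKO replicates 1 and 3 were above every WT library and DKO replicate 2 matched the median WT library. Its log2 change was 0.57 ± 0.20 (limma, unadjusted p = 0.0188, adjusted p = 0.299), and that of Tead2 was 0.39 ± 0.22 (adjusted p = 0.462). By p, the Tead4 promoter ranked within the top 43.9%, 25.0% and 38.4% of the WT lists and the top 13.6%, 27.9% and 15.4% of the DKO lists.

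Of the coactivator genes, Wwtr1 had the stronger promoter. Its window (chr3:57575766-57576266, upstream of the start) gave 10.7, 9.47 and 11.7 in WT and 11.8, 11.6 and 12.3 in DKO, with pileups of 150, 125 and 201 in WT and 160, 163 and 127 in DKO. On these deposited values the groups overlapped by a narrow margin, and after quantile scaling all 3 DKO libraries were above all 3 WT libraries. Its rank by p was 10836, 11097 and 9776 in the WT lists and 6990, 7472 and 5600 in the DKO lists. The log2 change was 0.34 ± 0.12 (limma, unadjusted p = 0.0158), which did not pass the adjustment over all windows (adjusted p = 0.279).

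The Yap1 promoter (chr9:8004510-8005010, upstream of the start and 70 bases from the TSS of Gm45494) was weaker and did not separate the genotypes. It gave 5.74, 6.00 and 7.03 in WT and 4.75, 5.96 and 6.30 in DKO. Its log2 change was 0.05 ± 0.20 (adjusted p = 0.975), and it was −0.15 without scaling.

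Among the target genes, Ajuba, a LIM-domain scaffold that inhibits LATS kinases, had the strongest promoter window (chr14:54578074-54578574, upstream), with 14.9, 8.86 and 15.2 in WT and 10.3, 9.43 and 12.5 in DKO. The WT values enclosed the DKO values. Lats2 (chr14:57746373-57746873, in an intron near an internal TSS) gave 9.22, 6.04 and 8.01 in WT and 5.04, 6.74 and 6.48 in DKO. Amotl2, which encodes a junctional protein that binds YAP, gave 6.46, 4.86 and 6.22 in WT and 6.88, 6.36 and 5.26 in DKO (chr9:102716912-102717412, in an intron near the gene start). Axl, which encodes a receptor tyrosine kinase, gave 5.06, 6.86 and 6.11 in WT and 5.27, 5.27 and 6.84 in DKO (chr7:25788538-25789038, upstream). For these 4 genes the ranges overlapped and the log2 changes were −0.07 ± 0.17 for Ajuba, −0.15 ± 0.20 for Lats2, 0.26 ± 0.18 for Amotl2 and 0.11 ± 0.24 for Axl, with adjusted p-values between 0.572 and 0.918.

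**Figure D2:**
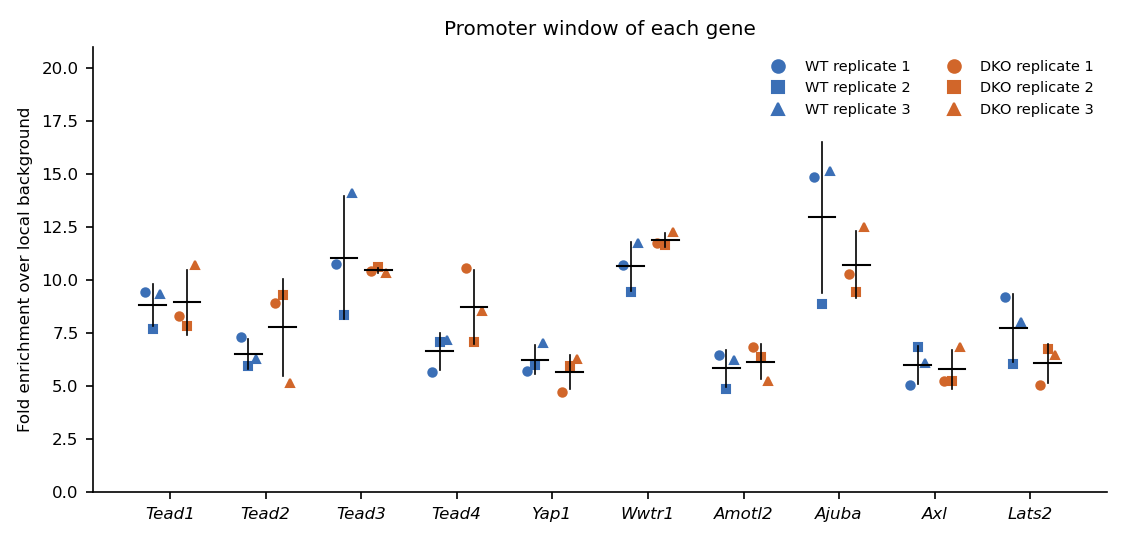
Fold enrichment over local background (y axis) of the promoter window of each of the 10 genes (x axis), with 1 point per library, the mean as a bar and the SD as a line (n = 3 per genotype). Wwtr1 has all DKO points between 11.6 and 12.3 against 9.47 to 11.7 in WT, Tead2 and Tead4 each have 2 DKO points above the WT range.

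The strongest site over 1 kb from every TSS was higher than the promoter window in all 10 genes by the mean over the 6 libraries, though by a small margin in Tead3. In Tead1 it was the intron window with TEAD and AP-1 letters (chr7:112720062-112720562), with 18.8, 15.4 and 18.3 in WT and 17.6, 17.9 and 15.6 in DKO. It stood within the top 1.67% of every list by p, and its log2 change was 0.10 ± 0.10 (adjusted p = 0.712). In Lats2 it was the window with paired TEAD letters beyond the 5′ end of the gene (chr14:57760360-57760860). That site gave 20.4, 16.9 and 17.6 in WT and 15.1, 14.8 and 16.5 in DKO, so that on the deposited values every DKO library was below every WT library. After scaling the groups overlapped, with a log2 change of −0.10 ± 0.13 (adjusted p = 0.800).

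Wwtr1 had its strongest such site in an intron with AP-1 letters (chr3:57487376-57487876), at 16.4, 13.5 and 18.4 in WT and 15.5, 16.05 and 12.95 in DKO. For Yap1 it lay downstream of the gene (chr9:7914482-7914982), at 17.8, 16.4 and 20.2 in WT and 16.2, 18.5 and 13.8 in DKO. The strongest of Tead4 was an intron site with TEAD letters (chr6:128282123-128282623), at 8.88, 8.48 and 11.8 in WT and 9.56, 10.3 and 8.40 in DKO. In each of these 3 genes the genotypes overlapped and DKO replicate 3 was the lowest of the 6 libraries, with log2 changes between −0.03 and 0.15. In Ajuba, Amotl2 and Axl such sites were flank windows inside neighbouring genes. They lay in an intron of 4931414P19Rik for Ajuba (chr14:54603239-54603739, WT mean 19.2 ± 2.83 (SD), DKO 18.4 ± 0.96), in an intron of Gm5627 for Amotl2 (chr9:102746847-102747347, 13.6 ± 2.56 and 13.4 ± 1.79) and in a UTR of Cyp2s1 for Axl (chr7:25802321-25802821, 10.4 ± 0.93 and 9.90 ± 1.65).

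To ask which sites differed between genotypes, limma was fitted over all 179249 windows. None of the 255 windows of these genes was called in either direction at an adjusted p under 0.05, beside 0.0363% of all windows called lower and 0.0234% called higher in DKO. At an unadjusted p under 0.05 there were 12 (4.71%), 5 lower and 7 higher, against 11.8% of all windows. The median log2 change was 0.07 over the 255 windows and 0.01 over all windows, and 148 of the 255 (58.0%) were positive, against 51.4% of all windows. Without WT replicate 3 the median over the 255 was 0.03. Without scaling it was −0.09, where the median of all windows was −0.14. For the 156 windows listed in every library, the median SD within a genotype was 0.20 log2 units and the median absolute change 0.18.

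After scaling, 9 windows (3.53%) had every DKO value below every WT value, against 7.67% of all windows, and 23 (9.02%) had every DKO value above, against 8.76%. The direction of this split depended on the scaling. On the deposited values without scaling 31 windows (12.2%) were wholly below and 3 (1.176%) wholly above, against 13.6% and 3.33% of all windows. Over the genes, the median log2 change ran from −0.06 at Tead2 to 0.21 at Tead3, with 0.17 at Amotl2, 0.12 at Axl, 0.07 at Tead1, 0.04 at Wwtr1, 0.03 at Tead4, 0.01 at Ajuba, −0.01 at Lats2 and −0.02 at Yap1. At Amotl2 19 of 23 windows (82.6%) were positive, against the 51.4% of all windows, and none of them had an unadjusted p under 0.05.

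**Figure D3:**
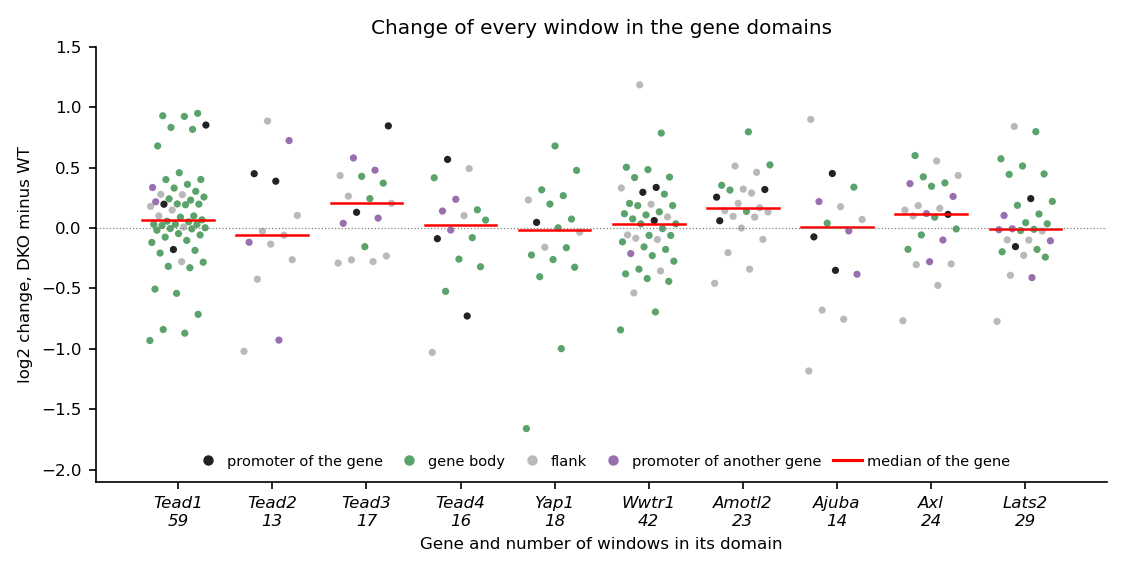
log2 change of fold enrichment after quantile scaling, DKO minus WT (y axis), for every window in the domain of each gene (x axis, with the number of windows), coloured by position, with the median of the gene as a red line. The medians lie between −0.06 and 0.21, and the lowest point is the Yap1 intron window at −1.66.

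The promoter windows were then taken as a class. The 23 windows within 1 kb of a TSS of their own gene had a median log2 change of 0.20, and all 30377 windows of the genome within 1 kb of a TSS had 0.08. None of the 23 was called (0.0198% of such windows were called lower and 0.0198% higher). After scaling, none was wholly below WT, against 4.35% of such windows, and 4 were wholly above, against 13.1%. On the deposited values 2 were wholly below (9.78% of such windows) and 1 wholly above (4.61%). Those below, also singled out after their values were seen, were an Ajuba window at the TSS (chr14:54577362-54577862, 6.30, 8.11 and 6.82 in WT, 6.01, 4.50 and 4.34 in DKO) and a Tead4 window listed in WT replicates 2 and 3 alone. The windows above after scaling were that of Wwtr1 and 3 weaker ones, of which those of Lats2 and Tead1 were singled out after their values were seen. The Tead3 window just inside the gene (chr17:28350121-28350621) was unlisted in WT replicate 1, stood at 2.77 and 2.96 in the other WT libraries and at 3.61, 3.78 and 3.23 in DKO, above also on the deposited values. The Lats2 window at an internal TSS (chr14:57745831-57746331, in a UTR, with TEAD letters) stood at 5.30, 4.82 and 6.15 in WT and 5.11, 6.50 and 5.36 in DKO, and was wholly above only after scaling. The Tead1 window inside the gene (chr7:112679830-112680330) was listed in WT replicate 1 at 3.46 and in the 3 DKO libraries at 3.15, 4.13 and 3.01.

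Yap1 held the window with the smallest p among the 255. In its intron, 13508 bases from the nearest TSS (chr9:7990830-7991330), all 3 WT libraries listed a summit, at 5.84, 3.98 and 5.87 with pileups of 19, 13 and 19, and no DKO library did. With the unlisted values set at the lowest fold enrichment of each list, the log2 change was −1.66 ± 0.35 (limma, unadjusted p = 0.000684, adjusted p = 0.142), which measures the height of the WT summits above the end of the DKO lists. The window passed the filter through the WT libraries alone, so its p is no test of a measured DKO value. A further Yap1 intron window with TEAD letters (chr9:7961798-7962298) gave 9.83, 8.49 and 10.5 in WT and 7.77, 7.16 and 6.65 in DKO, with every DKO value below every WT value and a log2 change of −0.22 ± 0.14 (adjusted p = 0.482).

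Only 1 other window was listed in all 3 libraries of one genotype and none of the other. It lay in the Tead2 flank, in an intron of Cd37 (chr7:45235681-45236181), at 3.38, 2.96 and 3.54 in WT. These 2 windows compare with 1.23% of all windows listed in the 3 WT libraries alone, and 0 of the 255 were listed in the 3 DKO libraries alone, against 1.14%. The log2 change of this Tead2 window was −1.02 ± 0.37 (adjusted p = 0.303), and it too passed the filter through WT alone. With summits counted up to 500 bp from the centre, it was −0.25 (limma, adjusted p = 0.834), so the change depended on the reach of the window. The next window (chr7:45235045-45235545), in a UTR of Cd37 and the strongest in the Tead2 domain over 1 kb from a TSS, gave 11.4, 11.5 and 14.1 in WT and 7.37, 8.34 and 8.50 in DKO. All DKO values were below all WT values there, with a log2 change of −0.42 ± 0.13 (unadjusted p = 0.01002, adjusted p = 0.229). Cd37 encodes a tetraspanin of leukocytes. Of the 5 leukocyte markers, Itgam was listed in the 3 DKO libraries only, Adgre1 in 2 DKO libraries only and Ptprc in 1 WT library only (3.504), with Csf1r between 3.20 and 4.46 and Cd68 between 4.79 and 6.26 in all 6. Their part in the Cd37 values was not tested.

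The other named windows lower in DKO were weaker sites, and 3 of them went unlisted in 2 DKO libraries. At Ajuba (chr14:54596298-54596798), WT gave 5.55, 4.55 and 4.11 and DKO was listed in replicate 3 alone at 2.95. In an intron of Tead1 (chr7:112882767-112883267) WT gave 3.504, 3.13 and 4.99, and DKO was again listed in replicate 3 alone at 2.95. Downstream of Tead4 (chr6:128222617-128223117) WT gave 3.796, 3.98 and 5.28 and DKO was listed in replicate 2 alone at 3.40. Pileups at these 3 windows were between 8 and 18. A Wwtr1 intron window (chr3:57554546-57555046) was listed throughout, at 4.40, 4.75 and 5.76 in WT and 3.97, 3.18 and 2.75 in DKO. The adjusted p-values of these 4 were between 0.282 and 0.495. The Ajuba, Tead1 and Tead4 windows passed the filter through the WT libraries. In each, 2 DKO values were the lowest of their lists, so their p is no test of measured DKO values. With summits counted up to 500 bp from the centre, the Tead4 change went from −1.03 to −0.57. The last of the 9 windows wholly below WT, singled out after its values were seen, lay in the Amotl2 flank in an exon of Gm36957 (chr9:102699521-102700021), at 5.55, 5.12 and 4.99 in WT and 3.91, 3.97 and 3.28 in DKO, with a log2 change of −0.34 ± 0.25 (adjusted p = 0.592).

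Among the windows higher in DKO, the Lats2 intron site with AP-1 letters (chr14:57729823-57730323) had the smallest p. It gave 9.99, 9.72 and 11.3 in WT and 13.7, 11.8 and 12.05 in DKO, so that all DKO libraries were above all WT libraries also on the deposited values. By p it was within the top 19.6%, 17.0% and 19.3% of the WT lists and the top 8.39%, 12.7% and 10.4% of the DKO lists. The log2 change was 0.45 ± 0.12 (limma, unadjusted p = 0.00456, adjusted p = 0.180). It was called when each list was limited to its 50000 best summits (adjusted p = 0.0224), where its WT ranks of 58634, 50930 and 57760 fell just outside the limit and so took the lowest listed value. That setting called 265 of 35797 windows higher (0.74%).

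In the Tead3 intron (chr17:28340935-28341435, with AP-1 letters, the strongest of that gene over 1 kb from a TSS), WT gave 9.21, 10.4 and 11.3 and DKO 12.4, 11.9 and 10.98. The deposited values overlapped through DKO replicate 3, and the scaled values did not, with a log2 change of 0.37 ± 0.13 (adjusted p = 0.295). In the Axl intron with TEAD and AP-1 letters (chr7:25783691-25784191), WT gave 7.42, 6.34 and 7.12 and DKO 8.59, 7.74 and 7.15. Here too DKO replicate 3 lay within the deposited WT range, and the log2 change was 0.35 ± 0.16 (adjusted p = 0.425).

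Both other Axl windows of this kind lay outside the gene. The flank window in an intron of Hnrnpul1 (chr7:25729325-25729825, with TEAD letters) gave 5.14, 5.08 and 7.46 in WT and 7.01, 8.72 and 6.86 in DKO, with a log2 change of 0.56 ± 0.17 (unadjusted p = 0.00832, adjusted p = 0.213). The window at the TSS of Gm29763 (chr7:25792866-25793366) gave 7.92, 5.99 and 9.25 in WT and 11.2, 8.55 and 6.79 in DKO, with a log2 change of 0.37 ± 0.17 (adjusted p = 0.442). The Wwtr1 flank window in an intron of Tm4sf4 (chr3:57435297-57435797) was listed in WT replicate 3 alone at 4.55 and in DKO at 3.91, 4.85 and 4.59. The deposited values of these 3 windows overlapped between the genotypes.

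**Figure D4:**
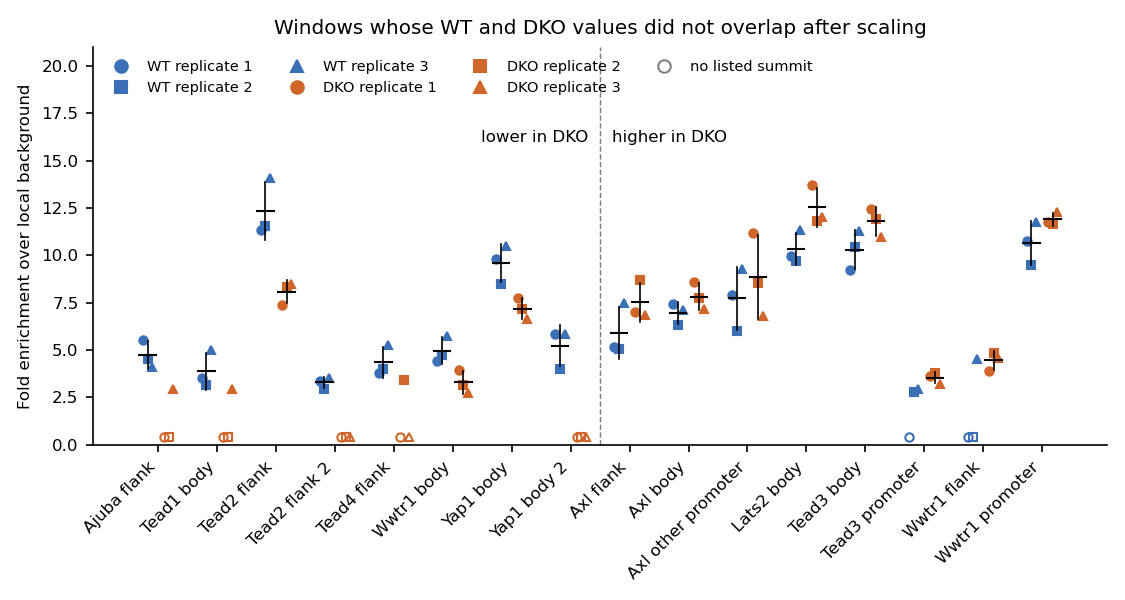
Fold enrichment over local background (y axis) of the 8 windows lower and 8 higher in DKO with the smallest p among those whose scaled values did not overlap, with 1 point per library, the mean as a bar and the SD as a line where all 3 libraries listed a summit. Open symbols at the bottom stand for libraries with no listed summit, and 5 of the 8 lower windows have at least 2 of these in DKO.

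The motif letters were distributed by position. TEAD letters lay in the central 201 bases of 46 of the 255 windows (18.04%), against 16.3% of all windows. In promoter windows of these genes the count was 7 of 23 (30.4%), against 10.6% of all windows within 1 kb of a TSS, with the 7 spread over Wwtr1 (2 windows), Tead3, Tead4, Yap1, Amotl2 and Lats2. AP-1 letters lay in 49 windows (19.2%), against 23.6% of all, in 0 of the 23 promoter windows, against 8.89%, and in 32 of the 131 gene body windows (24.4%). Both motifs lay in 9 windows, 3.53% against 3.63% of all. After scaling, the 46 windows with TEAD letters had a median log2 change of 0.13, with 8 (17.4%) wholly above and 1 (2.174%) wholly below WT. The 29268 such windows of the genome had a median of −0.01, with 8.05% wholly above and 8.74% wholly below. The 49 with AP-1 letters had a median of 0.06, with 4 (8.16%) wholly above and 1 (2.04%) wholly below, against a median of 0.01, 8.65% and 8.03% for all such windows. The 169 windows with neither motif had a median of 0.05, with 12 (7.10%) wholly above and 7 (4.14%) wholly below, against 0.01, 8.95% and 7.35%. All these splits are after scaling. On the deposited values only 3 of all 255 windows were wholly above WT and 31 wholly below, and that split was not counted by motif. A match of these letters is a description of the sequence and does not show that a factor was bound.

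The promoters of 36 other genes of the pathway were examined in the same fit. They included kinases and their cofactors (Stk3, Stk4, Lats1), scaffolds (Nf2, Amot), cofactors of TEAD (Vgll2 to Vgll4) and targets such as Ccn1, Ccn2 and Ankrd1, and all 36 had a promoter window. None was called lower or higher at an adjusted p under 0.05, and 8 of the 36 had an unadjusted p under 0.05, against 10.8% of all windows within 1 kb of a TSS. The log2 change was positive in 29 of the 36, with a median of 0.18, 12 wholly above WT and 0 wholly below, after scaling. All windows within 1 kb of a TSS had a median of 0.08, with 13.1% wholly above, 4.35% wholly below and 63.9% positive. On the deposited values without scaling, 5 of the 36 were wholly above and 4 wholly below, against 4.61% and 9.78% of such windows. The smallest p belonged to Vgll3, a TEAD cofactor (chr16:65814977-65815477), at 8.24, 6.51 and 7.64 in WT and 8.83, 9.71 and 9.37 in DKO. All its DKO values were above all WT values, with a log2 change of 0.50 ± 0.15 (adjusted p = 0.193). Stk3, which encodes the kinase MST2, had 12.4, 16.2 and 19.3 in WT and 23.2, 19.01 and 17.2 in DKO, with a log2 change of 0.45 ± 0.16 (adjusted p = 0.269). Mob1b, an activator of LATS kinases, had 6.11, 10.1 and 9.20 in WT and 10.9, 13.0 and 9.22 in DKO, with a log2 change of 0.58 ± 0.22 (adjusted p = 0.318). In the other direction, the smallest p belonged to Dchs1, a protocadherin upstream of Hippo. It was listed in WT replicates 2 and 3 alone, at 2.81 and 3.76, so its log2 change of −0.66 ± 0.43 rests on the lowest listed values of the other 4 libraries. Limd1 (−0.14 ± 0.16) and Ptpn14 (−0.10 ± 0.15) followed, and the adjusted p-values of the 3 were between 0.515 and 0.820.

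**Figure D5:**
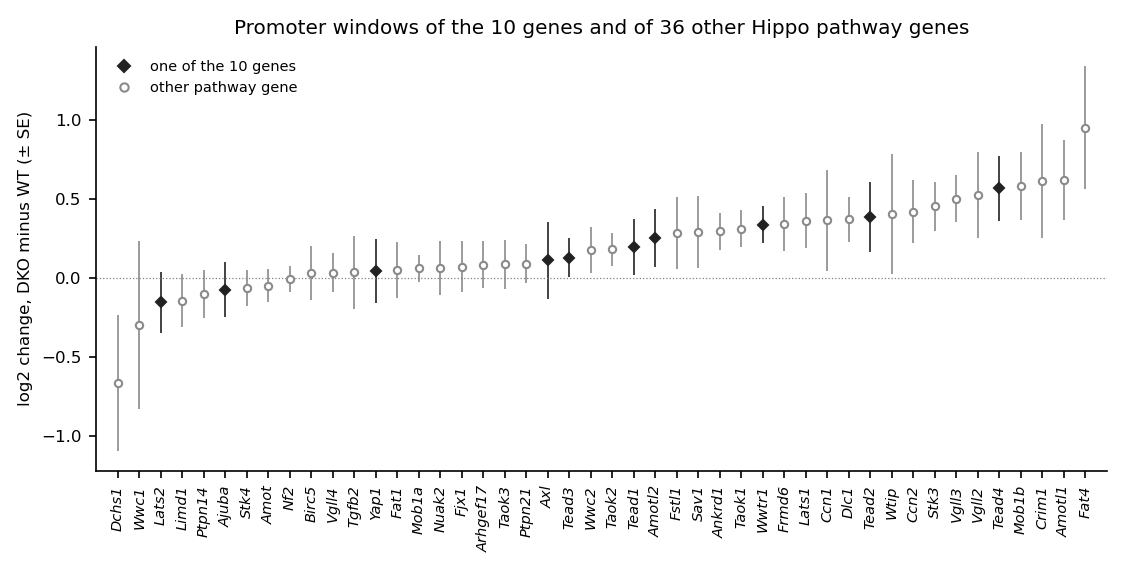
log2 change of the promoter window after quantile scaling, DKO minus WT, with its SE (y axis), for the 10 genes (filled) and 36 other genes of the Hippo pathway (open), in order of the change (x axis). Of the 10 genes Tead4 has the highest change (0.57) and Lats2 the lowest (−0.15), and no window passed the adjustment over all windows.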

How the data were processed

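ATAC-seq of 6 libraries was analysed, 3 of WT and 3 of DKO preadipocytes at day 0, grouped by the sample titles. Per the study's methods and processing notes, the authors trimmed paired-end reads (cutadapt 1.18), aligned them to mm10 with Bowtie2 2.3.4.3, removed duplicate and mitochondrial reads and ran MACS2 on each library by itself. The names of the lists give a p of 0.01 and about 300000 summits, whereas the methods give default settings. The deposited fold enrichment is the ratio of the pileup at a summit to the local background. The deposited p and q are −log10 values and are not corrected for depth. Read totals were not analysed here. Pileups, recovered from fold enrichment and p under the Poisson model of MACS2, were whole for 100% of 1276 summits (tolerance 0.01 in −log10 p).

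Windows of 501 bp were centred on the best ranked summits without overlap and retained where 2 or more libraries listed a summit at q under 0.01, on chromosomes 1 to 19 and X. A window's value was its highest fold enrichment, or the lowest of that list where none was listed. The log2 values were quantile-normalised and the difference of DKO from WT was fitted by limma 3.58.1 (R 4.3.3; eBayes with trend, two-sided, Benjamini-Hochberg over 179249 windows), after a test on simulated data. No test was run over the members as a list. Windows named were, for each gene, the promoter window and the strongest window over 1 kb from any TSS, the 8 windows lower and 8 higher with the smallest p among those without overlap, and windows listed in 1 genotype alone. The members and lists were chosen with earlier results of these data known. TSS were those of the GENCODE M21 basic set. Alternatives covered scaling, the variance trend, the window filter, the list limit, summits up to 500 bp from a window's centre, the flank (10 kb), −log10 p, each library left out and a replicate block.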

Additional observations from a re-analysis of the deposited data

How the results depend on the processing

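Of 585 values of 40 results under the alternatives, 543 held: direction and call were as in the main result, or a count or median moved little. Some of these could not move. The variance trend and the replicate block bear only on p, so log2 changes and counts wholly below or above WT stay the same under them. A site below the end of a list has no value, and the lists end at different p. The part of depth in this was not tested. Without scaling the median log2 change was −0.086, and 31 windows were wholly below and 3 wholly above WT. Wholly below WT were 15 windows with −log10 p as the value, 5 of those listed in all 6 libraries (fewer windows compared), and 1 with the 50000 best summits, where 7 were wholly above and 1 was called higher, beside 0.74% of the windows left. With no variance trend 2 were called lower, where 1.17% of all windows were. Both, at Yap1 and Tead2, were listed in WT alone within the window and passed the filter through WT, so these calls rest on the lowest values of the DKO lists. With summits counted up to 500 bp from the centre, the change was −0.25 at Tead2 and −1.66 at Yap1. Leaving out 1 library at a time gave 15 to 24 windows wholly below and 32 to 44 wholly above (2 libraries then being compared with 3), and a median of 0.029 (without WT replicate 3) to 0.10.

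Some changes near 0 turned sign. Without scaling the strongest distal windows gave −0.048 at Ajuba, −0.011 at Amotl2, −0.075 at Axl, −0.037 at Tead1, −0.035 at Tead4 and −0.11 at Wwtr1, and the promoters −0.052 at Axl, −0.046 at Tead3 and −0.15 at Yap1. With −log10 p the Axl and Yap1 flank windows gave −0.046 and 0.035 and the Yap1 promoter −0.0058. With 1 library left out the promoters ranged from −0.23 to 0.052 at Ajuba, −0.064 to 0.32 at Axl and −0.082 to 0.18 at Yap1, and the Yap1 flank window from −0.11 to 0.033. Other changes kept their sign but moved in size. The promoters ranged from 0.019 to 0.32 at Tead1, 0.26 to 0.62 at Tead2 and 0.055 to 0.21 at Tead3. The Axl window at the TSS of Gm29763 ranged from 0.20 to 0.495. The cause was not tested.

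Deviations of libraries with the same replicate number correlated at 0.0054, −0.012 and −0.0072, so the numbers did not pair the libraries. With the replicate block 0 windows of these genes were called and the median stayed at 0.07. Over the genome the block called 0 windows in place of 65 lower and 42 higher.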
